A study of Mus musculus with 1 sample.

Results

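Mature dendritic cells marked by *Fscn1* were examined in a single-cell RNA library from the pancreas of 2-week-old Scap f/f mice, in which *Scap* carries floxed alleles but no Cre recombinase is present, so that *Scap* is intact. Pancreata of several males and females were pooled before digestion with Collagenase P and removal of dead cells, and the library is therefore 1 sample with no replicate. It held 11789 barcodes and 51540177 unique molecular identifiers (UMIs, each counting 1 captured transcript), and 10129 barcodes had more than 800 and fewer than 10000 UMIs and less than 15% mitochondrial UMIs. Of these retained cells, 66 met the rule for *Fscn1* dendritic cells, 0.652% of the total (exact Clopper-Pearson 95% interval 0.504 to 0.828%). All intervals given here cover counting error only, and no difference between animals or genotypes could be tested.

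The cells were selected on measured transcripts. A member had at least 3 UMIs summed over *Fscn1*, *Il12b*, *Zmynd15*, *Apol7c*, *Mreg* and *Cxcl16* (the set genes), and at least 2 over the class II genes *H2-Ab1*, *H2-Eb1* and *Cd74*. It had at most 1 over the T cell genes *Cd3d*, *Cd3e*, *Cd3g* and *Trac*, at most 1 over the B cell genes *Cd79a*, *Cd79b* and *Ms4a1*, and none of the macrophage genes *C1qa*, *C1qb* and *C1qc*. Members held 1081 to 9721 UMIs, with a median of 3266.5, and 243609 UMIs in all. The median member had 1383 genes and 1.68% mitochondrial UMIs, against 1254 genes and 1.99% among the 10063 other retained cells.

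Dendritic cells take up antigen in tissues and present it to T cells. On maturation they stop sampling antigen, carry peptide-loaded MHC molecules and costimulatory ligands to the surface, and switch on the chemokine receptor CCR7, which guides them along lymphatic vessels to draining lymph nodes. Fascin, encoded by *Fscn1*, bundles actin filaments in the long processes of such cells. This state can be reached both by type 1 conventional dendritic cells (cDC1), which present antigen mainly to CD8 T cells, and by type 2 cells (cDC2), which present mainly to CD4 T cells.

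The set genes describe how the members were chosen and are given without any test. The 66 members held 295 *Fscn1* UMIs in 54 cells, 186 *Il12b* UMIs in 35 cells and 158 *Zmynd15* UMIs in 50 cells. They also held 143 *Mreg* UMIs in 51 cells, 127 *Cxcl16* UMIs in 54 cells and 93 *Apol7c* UMIs in 30 cells. Scaled to CPM (UMIs of a gene per 1000000 UMIs of the summed cells), *Fscn1* stood at 1211 CPM in members, 114 CPM in 6078 fibroblasts and 21.8 CPM in 1069 T cells. *Il12b*, which encodes the p40 subunit shared by interleukins 12 and 23, stood at 764 CPM in members and 0.357 CPM in all other retained cells, which together held 11 UMIs. Most members combined several set genes, 48 of them 4 or more, and a single member had UMIs of only 1.

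When each set gene was left out in turn and members were chosen on at least 3 UMIs of the other 5, the gene left out was still found. Of 61 cells chosen without *Fscn1*, 49 had a *Fscn1* UMI (1283 CPM, 95% Poisson interval 1139 to 1441). Of 63 cells chosen without *Il12b*, 32 had an *Il12b* UMI (692 CPM, 590 to 806). *Zmynd15*, which encodes a zinc finger protein of the MYND class, was at 619 CPM in 62 cells, and *Mreg*, encoding the vesicle transport protein melanoregulin, was at 598 CPM in 62 cells. *Cxcl16*, a membrane-anchored chemokine, was at 516 CPM in 65 cells, and *Apol7c*, an apolipoprotein L family gene, was at 373 CPM in 65 cells. In the mm10 genome *Fscn1* lies on chromosome 5 from 142960343 to 142973185 and *Il12b* on chromosome 11 from 44400063 to 44414033. *Zmynd15* (chromosome 11, 70459433 to 70466202, plus strand) and *Cxcl16* (chromosome 11, 70453983 to 70459984, minus strand) share 552 bases at their starts, and the assay reads transcripts from the other end.

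Outside the set genes, the most abundant chemokine of the members was *Ccl5*, whose product recruits T cells and monocytes. Members carried 0 to 361 *Ccl5* UMIs each, with a median of 80, and 61 of 66 had at least 1. The summed level was 26518 CPM (25875 to 27173), so that this gene supplied 2.65% of all their UMIs. T cells, the class with the next highest level, stood at 271 CPM, and members were 97.8-fold higher (90.6 to 106). C1q macrophages (17 cells with at least 3 UMIs of *C1qa*, *C1qb* and *C1qc* and the same T cell and B cell limits as members) stood at 111 CPM. The 81 cells with at least 10 class II UMIs, at most 2 set UMIs, no C1q UMI and those limits too, hereafter called other class II cells, stood at 11.1 CPM. A doublet caller marked 12 of these 81 cells and 1 of the 66 members. Lists of fibroblast, macrophage and B cell genes summed to 12987, 2617 and 1619 CPM in them, against 5673, 316 and 234 CPM in members. Other class II cells are therefore a mixed class, and ratios to them are not ratios to 1 cell type. After each cell was thinned to 800 UMIs, *Ccl5* was found in 92.4% of members, 8.33% of T cells and 0.806% of fibroblasts.

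*Epsti1*, an interferon-inducible gene, and *Ccr7* stood out in the same way. *Epsti1* was at 5431 CPM (5142 to 5732), with a UMI in 64 of 66 members and 0 to 120 UMIs per cell (median 13.5), against 302 CPM in T cells and 5.73 CPM in fibroblasts. *Ccr7* was at 1162 CPM (1030 to 1305), with a UMI in 58 members and 0 to 17 UMIs per cell (median 3). It stood at 217 CPM in T cells and 166 CPM in B cells, whose naive forms also use this receptor to enter lymph nodes, and members were 5.34-fold (4.62 to 6.16) and 7.0-fold (5.77 to 8.52) higher. In 56 members, *Ccl5*, *Ccr7* and *Epsti1* were all found in the same cell. With an upper limit of 100000 UMIs (85 members), *Epsti1* was at 2306 CPM and *Ccr7* at 483 CPM.

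Across all genes, 10195 could be compared between members and the other retained cells, and 3.98% were at least 4-fold higher and 5.51% at least 4-fold lower in members, by the ratio of CPM plus 10. Of the 31 genes of a list of the mature dendritic cell programme, 30 could be compared, 25 were at least 4-fold higher and 0 were 4-fold lower. Their median log2 ratio was 3.88, beside -0.32 over all genes compared. The list was drawn up with earlier results of these cells known, and 9 of its genes were among the 25 genes outside the rule with the highest ratio. Without *Ccl5* the list summed to 13386 CPM in members, 2802 CPM in C1q macrophages, 1848 CPM in B cells and 1181 CPM in T cells. Members of the list that were scarce included *Ccl17* (4 UMIs), *Stat4* (5 UMIs) and *Pdcd1lg2*, which encodes the inhibitory ligand PD-L2 (1 UMI).

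**Figure D1:**
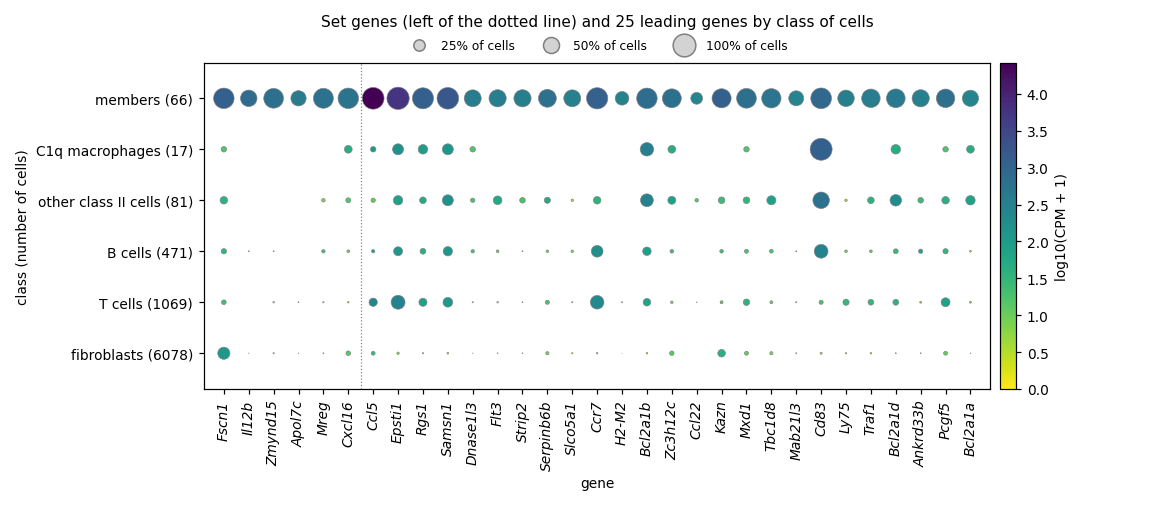
Each dot gives 1 gene (horizontal axis, the 6 set genes and then the 25 leading genes outside the rule) in 1 class of cells (vertical axis, with the number of cells); the dot's area is the percent of cells with a UMI and its colour the log10 of CPM plus 1. *Ccl5* and *Epsti1* have the darkest dots in members, while *Cd83* and *Bcl2a1b* are also seen in macrophages and other class II cells, *Ccr7* in T and B cells, and *Fscn1* in 28.8% of fibroblasts.

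The leading genes fell into several functions. Among regulators of signalling, *Rgs1*, which shortens signals from chemokine receptors, was at 1195 CPM (1061 to 1340) in members and 79.3 CPM in T cells, and *Samsn1*, an adaptor of lymphocytes, was at 1687 CPM (1528 to 1858) and 108 CPM. *Traf1*, an adaptor of the TNF receptor family, was at 369 CPM (297 to 454) and 31.6 CPM. *Zc3h12c*, encoding an RNase that degrades inflammatory transcripts, was at 653 CPM (555 to 762) in members and 14.7 CPM in all other cells. *Flt3*, the receptor for the growth factor of dendritic cells, was at 369 CPM in members, 55.5 CPM in other class II cells and 10.7 CPM in B cells, with no UMI in the 17 macrophages. *Ly75*, encoding the endocytic receptor DEC-205, was at 341 CPM, and *Dnase1l3*, a secreted DNase of dendritic cells and macrophages, was at 386 CPM.

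*H2-M2*, a nonclassical class I gene, had 67 UMIs in 24 members and 7 UMIs in the 10063 other cells. *Slco5a1* (324 CPM), an organic anion transporter family gene, *Strip2* (337 CPM), *Kazn* (1211 CPM), *Mxd1* (640 CPM), a partner of MAX, *Pcgf5* (673 CPM), a polycomb group gene, *Tbc1d8* (513 CPM), *Mab21l3* (263 CPM) and *Ankrd33b* (320 CPM) completed this group. The serpin gene *Serpinb6b* stood at 624 CPM in members and 11.7 CPM in all other cells. The survival genes *Bcl2a1b*, *Bcl2a1d* and *Bcl2a1a* stood at 722, 419 and 259 CPM, but they are near-identical copies between which reads may be divided, so their separate levels are uncertain. The genes with most UMIs in members were *Malat1*, *Tmsb4x*, *Ccl5*, *Actb* and the acinar gene *Ctrb1*. *Malat1*, a noncoding RNA kept in the nucleus, was at 48652 CPM in members and 10166 CPM in all other cells, and the part of nuclear RNA in these profiles was not tested.

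Promoters of these genes were searched because the genes were high in the same cells. Bases 250 to 1 before the start of 23 of the 31 set and leading genes were matched by symbol in RefSeq (GRCm38.p6, the build called mm10). Each was searched on both strands for a loose NF-kappaB motif, GGGANNNNCC, and for an interferon response motif, GAAANNGAAA. The first was present in 7 of 23 (30.4%), against 17.3% of 27025 promoters of all genes, and the second in 1 of 23 (4.35%), against 3.04%. A match describes letters and is not a binding site. The 4 promoters below were picked from the 8 of 23 with a match to either motif, and the 15 without a match include those of *Fscn1*, *Il12b* and *Mreg*. The sequences run 5′ to 3′ on the gene's strand, with the motif matches in capitals; they belong to *Epsti1* (chr14:77903989-77904238, plus), *H2-M2* (chr17:37483555-37483804, minus), *Ccl22* (chr8:94745434-94745683, plus) and *Apol7c* (chr15:77533316-77533565, minus). The capitals in the first 3 are NF-kappaB motif matches, and those in *Apol7c* are 2 overlapping interferon response motif matches on the minus strand of the printed sequence.
Epsti1: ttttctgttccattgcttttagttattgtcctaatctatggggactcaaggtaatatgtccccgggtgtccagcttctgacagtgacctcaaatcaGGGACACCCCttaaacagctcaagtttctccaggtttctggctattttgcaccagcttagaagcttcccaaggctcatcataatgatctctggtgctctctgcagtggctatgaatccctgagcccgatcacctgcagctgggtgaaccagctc
H2-M2: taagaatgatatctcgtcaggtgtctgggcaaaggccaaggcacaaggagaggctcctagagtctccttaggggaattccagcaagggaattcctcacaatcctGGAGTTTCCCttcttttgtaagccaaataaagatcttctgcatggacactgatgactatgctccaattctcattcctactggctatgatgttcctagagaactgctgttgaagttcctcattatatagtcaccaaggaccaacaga
Ccl22: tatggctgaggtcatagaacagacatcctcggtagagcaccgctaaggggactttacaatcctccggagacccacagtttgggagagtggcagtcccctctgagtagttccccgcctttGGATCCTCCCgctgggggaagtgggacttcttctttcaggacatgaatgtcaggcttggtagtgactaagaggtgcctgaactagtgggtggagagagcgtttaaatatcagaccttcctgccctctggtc
Apol7c: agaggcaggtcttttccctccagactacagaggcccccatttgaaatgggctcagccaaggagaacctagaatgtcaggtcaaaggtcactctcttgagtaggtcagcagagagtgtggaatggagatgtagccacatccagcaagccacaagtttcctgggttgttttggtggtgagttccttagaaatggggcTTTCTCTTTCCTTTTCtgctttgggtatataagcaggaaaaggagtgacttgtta

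Chemokine transcripts of the members were dominated by *Ccl5*, which made up 26518 of the 27290 CPM summed over 19 chemokine genes. *Ccl22*, whose product draws CCR4-bearing T cells, had 65 UMIs in 18 of 66 members (267 CPM, 206 to 340), with 0 to 15 UMIs per cell, and 11 UMIs in all 10063 other cells. *Ccl17*, a second CCR4 ligand, was lower in members (16.4 CPM) than in other class II cells (104 CPM). The monocyte and eosinophil attractants *Ccl2*, *Ccl7*, *Ccl12* and *Ccl24* had no UMI in any member, which allows up to 12.3 CPM. The same genes stood at 697, 665, 554 and 1742 CPM in C1q macrophages, so *Ccl24* was at least 141-fold and *Ccl2* at least 56.6-fold lower in members, taking 3 UMIs over all members as the limit. Against macrophages, 12.1% of 2588 genes compared were at least 4-fold higher in members and 7.11% at least 4-fold lower. Of the 10 chemokines that could be compared, 2 were higher (*Ccl5* and *Ccl22*) and 8 lower.

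Among cytokines, *Il15*, which sustains CD8 T cells and NK cells, had 89 UMIs in 34 members. It was at 365 CPM, 24.7-fold (9.32 to 92.7) the level in other class II cells. *Il15ra*, the receptor chain that presents interleukin 15 on the cell surface, was at 271 CPM, had no UMI in other class II cells and was at least 24.4-fold higher. The partner subunits of the *Il12b* product were nearly absent, with 1 UMI of *Il12a* and none of *Il23a*. *Ebi3*, a subunit of interleukins 27 and 35, had 19 UMIs in 12 members. The inflammatory cytokines *Il1b*, *Il6* and *Tnf* had 1, 1 and 4 UMIs, and *Il10* had none. *Il33*, an alarmin known mainly from stromal cells, had 41 UMIs in 18 members (168 CPM), against 64.3 CPM in fibroblasts.

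**Figure D2:**
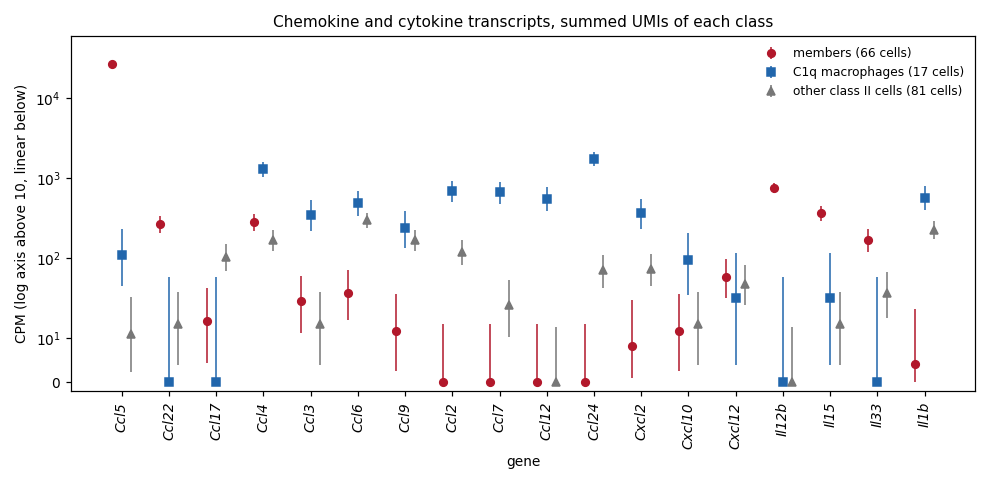
Points give the level in CPM (vertical axis, logarithmic above 10 and linear below) of chemokine and cytokine genes (horizontal axis) in summed UMIs of 66 members, 17 C1q macrophages and 81 other class II cells, with exact 95% Poisson intervals. *Ccl5* reaches 26518 CPM in members, whereas *Ccl2*, *Ccl7*, *Ccl12* and *Ccl24* are at 0 there and above 500 CPM in macrophages.

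Ligands for T cells were represented on the stimulating side mainly by *Cd83*, *Cd86* and *Cd40*. *Cd83*, a surface marker of maturation that holds class II molecules at the membrane, was at 887 CPM (772 to 1013) in 55 members. It was higher in macrophages (1235 CPM) and 1.53-fold (1.24 to 1.89) lower in other class II cells. *Cd86* had 68 UMIs in 26 members and *Cd40* 31 UMIs in 21 members, while *Cd80* had 8 UMIs, *Cd70* 3 and *Tnfsf4* none. Adhesion to T cells was represented by *Icam1* (50 UMIs in 32 members). Of 9 genes of this group compared with all other cells, 6 were at least 4-fold higher and 0 lower, beside 3.98% of all genes higher. Against other class II cells, however, 1 of 7 was higher (4.35% of all genes), and against macrophages 2 of 6 were (12.1% of all genes). The group summed to 1794 CPM in members and 1805 CPM in macrophages. On the inhibitory side, *Cd274*, encoding PD-L1, had 60 UMIs in 24 members (246 CPM) and *Il4i1*, an enzyme that breaks down amino acids needed by T cells, had 66 UMIs in 34 members. *Cd200* had 67 UMIs in 39 members and *Socs2*, a feedback inhibitor of cytokine signals, 77 UMIs in 36 members. *Ido1*, which degrades tryptophan, and *Havcr2* had no UMI.

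Genes of NF-kappaB signalling, which drives maturation, were at least 4-fold higher in members for 10 of the 15 compared with all other cells, beside 3.98% of all genes. Against other class II cells, 2 of the 11 compared were higher. Between members and other class II cells, 4.35% of 4349 genes were at least 4-fold higher and 4.94% at least 4-fold lower. The 2 were *Relb*, the transcription factor of the noncanonical branch, and *Traf1*. *Relb* was at 439 CPM in 45 members and 40.7 CPM in other class II cells, a ratio of 10.8 (5.80 to 22.3). *Rel*, encoding c-Rel, was at 915 CPM in members and 3.09-fold (2.39 to 4.05) above other class II cells. Against macrophages, 3 of 11 genes of the list were at least 4-fold higher and 1 lower, beside 12.1% and 7.11% of all genes compared. The list summed to 3879 CPM in members and 2992 CPM in macrophages. *Relb* was 13.9-fold (3.75 to 116) and *Rel* 2.51-fold (1.63 to 4.05) above macrophages. *Nfkb1*, *Rela* and *Nfkbiz* were at 177, 16.4 and 160 CPM in members and 332, 47.5 and 1219 CPM in macrophages. The interval of the *Rela* ratio (0.0585 to 2.36) included 1.

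Class I presentation genes were higher in members than in other class II cells, while genes of the class II pathway differed from one another. Of 13 class I genes, 7 were at least 4-fold higher in members and 0 lower, beside 4.35% and 4.94% of all genes compared. *B2m*, the shared light chain of class I molecules, was at 3974 CPM in members and 6.07-fold (5.17 to 7.17) above other class II cells, and the heavy chain *H2-K1* was 5.47-fold (4.55 to 6.6) above. The immunoproteasome subunit *Psmb9*, the proteasome activators *Psme1* and *Psme2*, and *Nlrc5*, the transactivator of class I genes, were 6.88-fold, 4.24-fold, 6.70-fold and 6.54-fold above. All 13 intervals lay above a ratio of 1, and that of *Tap1*, a subunit of the peptide transporter, came closest to it (2.48, 1.25 to 5.19). Against macrophages, 6 of the 13 genes were at least 4-fold higher and 0 lower, beside 12.1% and 7.11% of all genes compared.

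The class II genes *H2-Ab1*, *H2-Eb1* and *Cd74* entered the choice of both classes of cells, with a higher minimum in the other class II cells, and are given as a description. *Cd74*, the invariant chain, was at 1716 CPM in members and 5124 CPM in other class II cells. *H2-Aa*, which the rule did not use but which is made with *H2-Ab1*, was at 961 CPM in members, 2599 CPM in other class II cells and 1224 CPM in B cells. *Ciita*, the transactivator of class II genes, had 2 UMIs in members (8.21 CPM) and was at 85 CPM in other class II cells, a ratio of 0.097 (0.011 to 0.391). The peptide exchange genes *H2-DMa* and *H2-DMb1* had 7 and 5 UMIs, 7.59-fold (3.46 to 19.7) and 13.1-fold (5.38 to 41.7) below. Of 9 genes of the class II list compared with other class II cells, 4 were at least 4-fold lower and 0 higher, beside 4.94% and 4.35% of all genes. Of the 4 that could be compared with macrophages, 0 were lower or higher, beside 7.11% and 12.1% of all genes. The choice of other class II cells for at least 10 class II UMIs partly fixes the former count. The list's summed level was 6490 CPM in members and 6081 CPM in other class II cells. *Cst3*, the cathepsin inhibitor cystatin C, was at 4520 CPM in 64 members and 2.03-fold (1.84 to 2.25) above other class II cells, and *Ifi30*, a lysosomal thiol reductase, was 2.98-fold (2.19 to 4.11) above. The protease *Ctss* was at 279 CPM and 259 CPM (ratio 1.08, 0.761 to 1.53).

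The comparison was repeated with the 21 members that also had at least 10 class II UMIs. *H2-Aa* was then at 1910 CPM in members, 0.735-fold (0.620 to 0.867) the level in other class II cells, and the summed class II list was 1.71-fold (1.57 to 1.85) above, 680 of its 978 UMIs being *Cst3*. *H2-DMa* (4 UMIs, ratio 0.195, 0.0513 to 0.525) and *H2-DMb1* (ratio 0.118, 0.0238 to 0.358, from 3 UMIs) remained lower, while the interval of *Ciita* (2 UMIs) reached 1.01. All 13 class I intervals again lay above 1, and *B2m* was 6.36-fold (5.31 to 7.63) above.

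**Figure D3:**
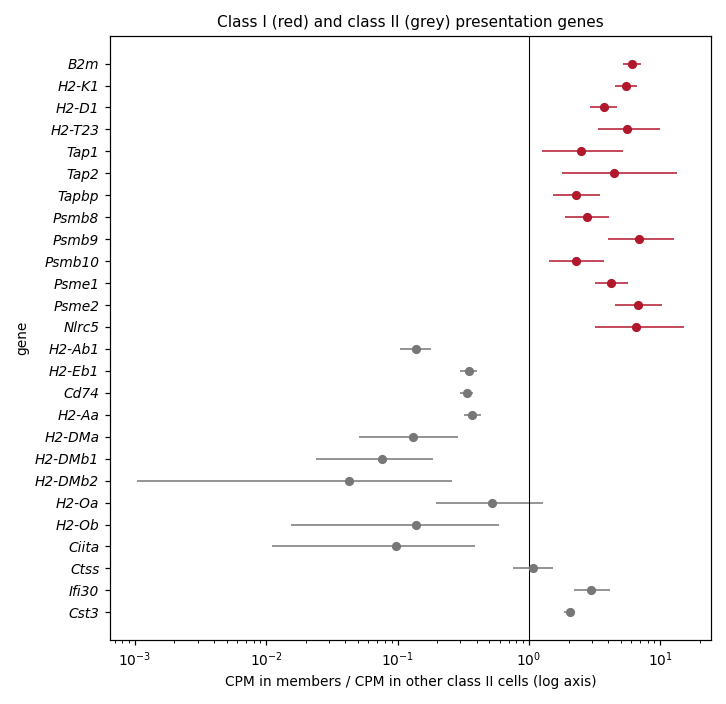
Each point is the ratio of a gene's CPM in 66 members to its CPM in 81 other class II cells (horizontal axis, logarithmic, with exact 95% intervals), and the vertical line marks equal levels. The 13 class I genes (red) lie to the right of the line, and the class II genes (grey) lie to the left except *Ctss*, *Ifi30* and *Cst3*, in a comparison with cells chosen for higher class II counts; the interval of *H2-Oa* also crosses it.

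Genes that define dendritic cells as a lineage were present. *Zbtb46*, a transcription factor of conventional dendritic cells, had 40 UMIs in 26 members (164 CPM), against 11.7 CPM in B cells and 4.0 CPM in T cells. *Id2*, needed for dendritic cell development, was at 1593 CPM in 59 members. *Irf8* was at 566 CPM in 35 members, *Spi1* at 160 CPM, and *Itgax*, encoding CD11c, had only 2 UMIs. Of 9 pan-dendritic genes compared with all other cells, 6 were at least 4-fold higher and 0 lower, beside 3.98% and 5.51% of all genes. Against other class II cells 3 of 9 were higher and 0 lower, beside 4.35% and 4.94% of all genes. *Zbtb46* was 2.61-fold (1.45 to 4.91) above other class II cells. Markers of the immature subsets were mostly scarce. *Batf3* (61 UMIs in 41 members) and *Cadm1* (56 UMIs in 24 members), both used by cDC1, were found, but the surface receptors *Xcr1* and *Clec9a* had 3 and 5 UMIs, all 3 of the former in 1 cell. Of the cDC2 genes, *Sirpa* had 8 UMIs, *Cd209a* 2 and *Mgl2* and *Clec4a4* none, while *S100a4* had 69 UMIs in 11 members and *Clec12a* 25 in 15. *Itgb8*, which encodes the integrin chain that activates TGF-beta, had 47 UMIs in 12 members, and *Aire*, which drives expression of tissue antigens in the thymus, had 2 UMIs.

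Markers of other cell types were measured in the same profiles. Of 15 macrophage and monocyte genes, 6 had no UMI in members, among them *Adgre1*, *Mrc1*, *Cd163* and *Pf4*, and the list summed to 316 CPM, against 16989 CPM in C1q macrophages. *Lyz2* had 28 UMIs, all in 1 member, without which the list summed to 201 CPM. Under other choices of members it ranged from 112 CPM, without members of 5 or more fibroblast UMIs, to 708 CPM, with an upper limit of 100000 UMIs. The absence of C1q was part of the rule. Of 8 further B cell genes, *Pax5*, *Ighd* and *Cd22* had no UMI, and the list summed to 234 CPM against 10944 CPM in B cells. Of 13 further T and innate lymphoid genes, 6 had no UMI and the most abundant was *Il7r* (25 UMIs in 14 members). The leukocyte gene *Ptprc*, encoding CD45, was at 283 CPM in 34 members and *Cd52* at 1141 CPM in 58. The 5 leukocyte genes summed to 1905 CPM in members, 2185 CPM in macrophages and 2669 CPM in other class II cells, and *Coro1a* and *Cd53* were 5.92-fold (3.64 to 10.2) and 8.56-fold (4.13 to 20.5) below the latter. Globin genes summed to 558 CPM in members, 543 CPM in other class II cells, 697 CPM in macrophages and 8605 CPM in T cells.

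Fibroblast and acinar transcripts, which free RNA can bring into any droplet, were also found. The 8 fibroblast genes summed to 5673 CPM in members, 9972 CPM in B cells and 52218 CPM in fibroblasts. The median member had 3 of these UMIs, while 5 members held 1067 of the 1382, and without those 5 the list summed to 1467 CPM. The 10 acinar genes made up 3.36% of members' UMIs, against 2.99% in B cells and 2.44% in T cells, and ranged from 0.311 to 32.5% per member with a median of 0.673%. A single member held 2918 of these 8192 UMIs, and without it the share was 2.25%. *Fscn1* itself was found in 28.8% of fibroblasts, and 23 members had 5 or more UMIs of the 8 fibroblast genes. With those 23 removed, *Ccl5* was at 33360 CPM and the programme list at 48504 CPM in the remaining 43 cells. Other choices lowered *Ccl5*, to 20855 CPM with cells of 2 set UMIs added, 18607 CPM in the 21 members with at least 10 class II UMIs and 11447 CPM with an upper limit of 100000 UMIs.

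**Figure D4:**
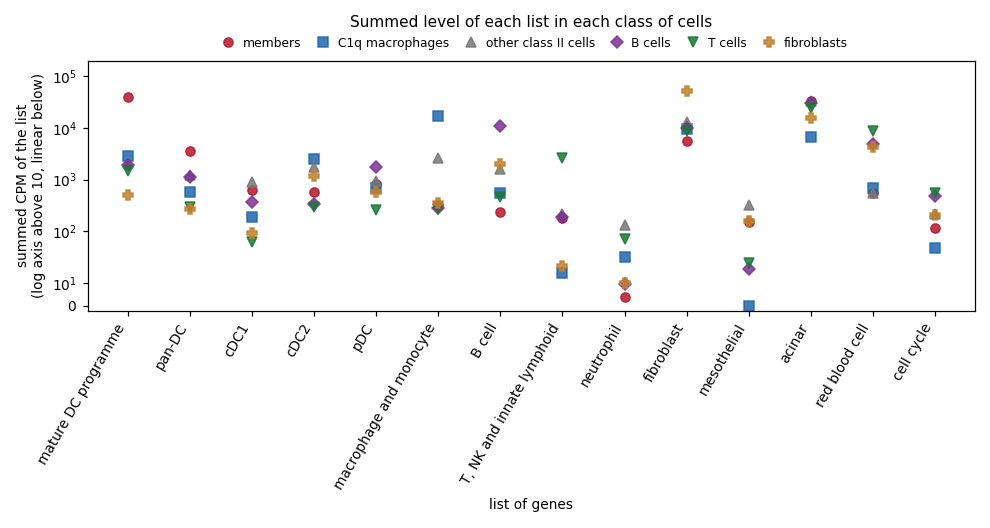
Points give the summed level in CPM (vertical axis, logarithmic above 10 and linear below) of lists of marker genes (horizontal axis) in members and in 5 other classes of cells. Members have the highest value for the mature dendritic cell programme and the pan-dendritic list, and values well below the class a list is named for in the macrophage, B cell, T cell and fibroblast lists.

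Other gene groups gave a mixed picture. Apart from *Epsti1*, the interferon-inducible genes *Isg15*, *Ifit1* and *Ifit3* had 8, 2 and 1 UMIs, and *Ifit2* had none. Immediate early genes, which tissue digestion can induce, were at least 4-fold lower in members than in macrophages for 6 of 7 compared. Over all genes compared with macrophages, 7.11% were lower. *Fos* was 5.29-fold (4.47 to 6.28) and *Egr1* 7.78-fold (5.69 to 10.7) lower. *Fos* was at 981 CPM in members, 1014 CPM in T cells and 4595 CPM in fibroblasts. The 7 cell cycle genes summed to 115 CPM in members, against 554 CPM in T cells and 206 CPM in fibroblasts, and 10 members had a UMI of any of them. Uptake and pattern receptors were scarce: *Mrc1*, *Fcgr3*, *Tlr2* and *Tlr13* had no UMI, and *Fcer1g* had 43 UMIs in 21 members. Of 14 actin and migration genes compared with macrophages, 1 was at least 4-fold higher and 1 lower, beside 12.1% and 7.11% of all genes. Both counts are near these shares, so no result about the group is drawn from them. The median log2 ratio of the group was -0.17. *Actb* was at 13345 CPM in members and 13284 CPM in macrophages, and *Marcksl1* was at 817 CPM and 332 CPM, while *Rac2* was 4.63-fold (2.2 to 9.87) and *Vim* 2.19-fold (1.60 to 2.97) lower in members. Outside this list, *Tbc1d4*, a regulator of vesicle traffic, was at 1498 CPM and 301 CPM. Of 9 other apolipoprotein L genes, 8 had no UMI in members and *Apol10b* had 2 UMIs in 2 cells, while *Apol7c* was one of the genes used to choose them.

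The sterol pathway that gives the mouse line its name was measured as well. SCAP escorts the transcription factors SREBP1 and SREBP2 from the endoplasmic reticulum when sterols are low. *Scap* had 4 UMIs in 4 members (16.4 CPM, 4.47 to 42.0), against 29.5 CPM in all other cells (ratio 0.556, 0.151 to 1.43). *Srebf1* had 2 UMIs, and *Srebf2* was at 131 CPM, 2.42-fold (1.65 to 3.43) above all other cells. The cholesterol synthesis genes *Hmgcs1* and *Sqle* had 6 and 4 UMIs. *Abcg1*, a cholesterol exporter, was at 250 CPM in 34 members and 22.5-fold (16.8 to 29.6) above all other cells, whereas the exporter *Abca1* and the desaturase *Scd1* had 1 UMI each. Of 19 genes of this list compared by CPM plus 10, *Abcg1* was at least 4-fold higher and *Abca1* at least 4-fold lower. Over all genes compared with the other cells, 3.98% were higher and 5.51% lower. The counts of the list are near these shares, so they describe the 2 genes and not the pathway.

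The members were not uniform. Their class II transcripts (*H2-Aa*, *H2-Ab1*, *H2-Eb1* and *Cd74*) made up 0.0232 to 3.08% of a cell's UMIs, with a median of 0.241%. The 8 members with the largest share, 0.766% or more, had 0 to 72 *Ccl5* UMIs with a median of 5.5, and 1 of them had 50 or more. The other 58 had a median of 96.5 *Ccl5* UMIs, and 38 of them had 50 or more. Median depth was 3117 and 3397 UMIs, and 7 of the 8 had a *Ccr7* UMI. The division into 8 and 58 was chosen after the values were seen, 3 of the 4 class II genes entered the choice of members, and over all 66 members the rank correlation of the 2 shares was -0.11, so no relation of *Ccl5* with class II is drawn from it. The member with the highest class II share had 21 *Il12b* UMIs, the only 3 *Xcr1* UMIs, 4 of *Cadm1* and none of *Ccl5* or *Ccr7*. It also had no *Fscn1* UMI, 1 of *Epsti1*, and UMIs of only 2 of the 31 genes of the mature dendritic cell programme. The label of mature *Fscn1* cell therefore does not describe this member by these transcripts. The rank correlation of the class II share with that of *Cst3* was 0.48 over 66 cells of 1 library. These cells are not replicates and were chosen partly on class II genes, so no relation is drawn from it either.

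**Figure D5:**
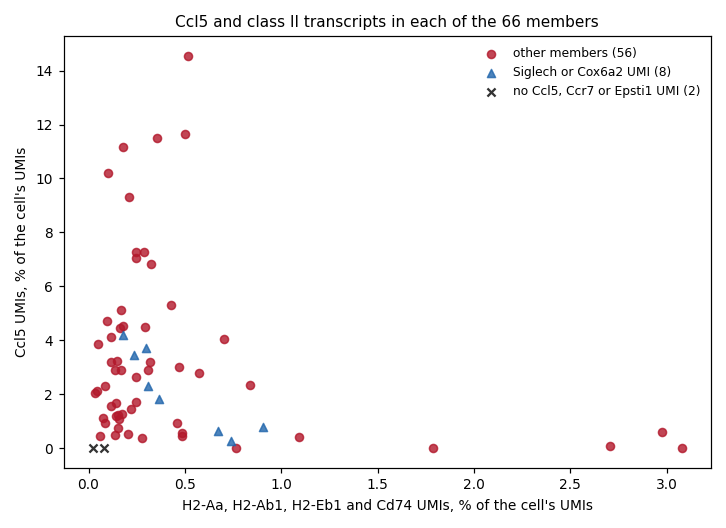
Each point is 1 of the 66 members, with the percent of its UMIs from 4 class II genes on the horizontal axis and the percent from *Ccl5* on the vertical axis. The 5 members with over 1% class II lie at or below 0.585% for *Ccl5*, and the 8 members with *Siglech* or *Cox6a2* (triangles) lie among the others.

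Transcripts typical of plasmacytoid dendritic cells, which make type I interferon, were found in 8 members with a UMI of *Siglech* or *Cox6a2* (29 and 21 UMIs in all, in 7 and 6 cells). All 8 also had *Ccl5* (7 to 361 UMIs), *Fscn1* and *Epsti1*, and 7 had *Ccr7*. *Bcl11a*, a transcription factor of plasmacytoid and B cells, had 29 UMIs in 7 of these 8 cells and 5 UMIs in the other 58 members. *Irf8* was at 1334 CPM in the 8 and 410 CPM in the 58, and *Ly6d* at 534 and 19.8 CPM. *Igkc*, the immunoglobulin kappa constant gene, had 15 of its 16 UMIs in them. *Ccl4* had 68 UMIs in 5 members, 51 of them in 4 of these cells. These cells were picked on the genes named first and the doublet caller Scrublet marked 0 of the 8. Their median depth was 3975 UMIs, against 3194 in the others, and the part of depth in these counts was not tested. Over all members, *Siglech* was 24.4-fold (9.33 to 80.7) above B cells and 1.46-fold (0.812 to 2.67) the level in other class II cells. *Bcl11a*, *Ly6d* and *Igkc* were 4.08-fold, 11.7-fold and 61.2-fold lower in all members than in B cells. The part of B cell RNA in these counts was not tested.

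In 2 members no UMI of *Ccl5*, *Ccr7* or *Epsti1* was found. They had 213 and 335 fibroblast UMIs, 5 and 28 mesothelial UMIs, and 3 set UMIs each, the lowest number the rule admits. Scrublet marked 1 of them as a doublet, and no other member. The label of dendritic cell therefore does not describe these 2 by their leading transcripts. Without them, *Ccl5* was at 28087 CPM and *Epsti1* at 5752 CPM. At the threshold itself, 5 members had exactly 3 set UMIs, and 3 of these had *Ccr7*. Of 13 cells with exactly 2 set UMIs that met the rest of the rule, 2 had *Ccr7* and 1 had 5 or more *Ccl5* UMIs, and their median was 122 fibroblast UMIs, against 3 in members. On the class II side, 129 retained cells with at least 3 set UMIs had fewer than 2 class II UMIs, and 15 of them had 5 or more *Ccl5* UMIs and 11 had *Ccr7*.

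Likeness was measured outside the rule genes as the Pearson correlation of each member's log profile with the mean profile of each class, over all genes with at least 200 UMIs in retained cells. The member's own profile was left out of the mean. Of 66 members, 59 were closest to the other members, 5 to fibroblasts and 2 to other class II cells. The median correlation was 0.657 with the other members, 0.568 with other class II cells, 0.544 with B cells, 0.541 with T cells, 0.508 with C1q macrophages and 0.441 with fibroblasts. All 5 members closest to fibroblasts had at least 144 fibroblast UMIs, and 3 of them carried 23 to 114 *Ccl5* UMIs. Of the 2 closest to other class II cells, 1 was the member with the highest class II share (0.675, against 0.643 with the other members).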

How the data were processed

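Pancreata of 5 to 6 mice were pooled per the study's methods, and 1 Scap f/f library was made with the 10x 3′ v3.1 kit and aligned by the authors to mm10 with Cell Ranger 7.1.0 (per the labels). The deposited values are raw UMI counts per gene and barcode, before any removal of free RNA, and free RNA was not subtracted here. UMIs were summed over each class of cells and scaled to CPM, with exact Poisson 95% intervals, exact conditional binomial intervals for ratios and Clopper-Pearson intervals for shares. Genes were compared where both classes together held at least 20 UMIs and either had at least 10 CPM, and a 4-fold ratio of CPM plus 10 was counted as higher or lower. A class at 0 was given a limit of 3 UMIs. B cells (471) and T cells (1069) had at least 2 UMIs of their rule genes, at most 1 of the other's and no C1q UMI, and fibroblasts (6078) at least 20 UMIs of *Col1a1*, *Col1a2* and *Col3a1*, no *Ptprc* and fewer than 2 class II UMIs. Shares were repeated with each cell thinned to 800 UMIs. Doublets were marked with Scrublet in scanpy 1.11.5 (502 of 10129 retained cells, 1 member) and kept. Steps were tested on simulated data.

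Named genes were the rule genes, the genes of fixed lists, the 25 genes outside the rule with the highest ratio to all other cells (at least 20 UMIs and found in at least 25% of members), the 10 highest and 10 lowest outside the rule against macrophages, and the 5 with most UMIs. Members and lists were chosen with earlier results of these data known. Some genes of the lists are not reported here.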

Additional observations from a re-analysis of the deposited data

Results flagged for a closer look

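Barcodes outside the UMI limits were not part of the comparisons. At or above 10000 UMIs, 19 barcodes met the rest of the rule for *Fscn1* dendritic cells, and 3 of them had 5 or more *Ccl5* UMIs. These 3 held 12035, 10406 and 15780 UMIs in all, with 11, 582 and 477 *Ccl5* UMIs, 5, 8 and 17 *Ccr7* UMIs and 444, 14 and 12 fibroblast UMIs. The median over the 19 was 252 fibroblast UMIs, against 3 in members. At or below 800 UMIs, 2 barcodes met the rest of the rule, and both had *Ccr7* and *Epsti1*.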

How the results depend on the processing

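With 1 library of pooled mice, differences between animals, and whether cells of a type were fewer or held less RNA, could not be measured, and genes under about 12 CPM in members were at the limit of depth. No paired analysis was possible because there was 1 sample. Of 141 single-gene levels under alternatives, 100 stayed inside the counting interval of the reported value, as did 61 of 100 shares and list levels. The other 39 follow, as summed CPM of the mature dendritic programme (39904 as reported), the macrophage list (316), class I genes (11970) and the class II list without the rule genes (6490), the share with *Ccr7* (87.9%) and the share closest to other members (89.4%). An upper limit of 100000 UMIs (85 members) gave 17731, 708, 6342 and 2913 CPM, 74.1% and 72.9%. It also lowered all 9 single genes followed, each by over 1.5 times, among them *Ccr7* from 1162 to 483 CPM, *Epsti1* from 5431 to 2306, *Fscn1* from 1211 to 560, *Il12b* from 764 to 289, *Cd83* from 887 to 389, *Flt3* from 369 to 152 and *Irf8* from 566 to 269. At least 2 set UMIs (79) gave 31615, 516, 9715 and 5318 CPM, 75.9% and 75.9%. At least 4 (61) gave 42210 CPM for the programme, 12695 for class I and 6828 for class II. At least 10 class II UMIs (21) gave 33862, 594, 13176 and 10375 CPM and a member share of 0.207%, with *Irf8* at 880 CPM and *Siglech* at 265 CPM (119 as reported). Removing 23 members with 5 or more fibroblast UMIs gave 48504, 112, 13972 and 7684 CPM, 97.7% and a member share of 0.425%. *Siglech* was then at 60.4 CPM. The mean of per-cell CPM was 45527, 230, 12771 and 7573 CPM, and 72.8 CPM for *Siglech*. The programme alone moved with a *Fscn1* UMI required (38537 CPM), without Scrublet doublets (40727) and without digestive enzyme genes in the denominator (41293). Allowing 1 C1q UMI gave 7049 CPM for class II. Thinning to 800 UMIs gave 60.6% with *Ccr7*. In 2 alternatives chosen after seeing the data, removing the members without *Ccl5*, *Ccr7* and *Epsti1* gave 42217 CPM for the programme, 12617 for class I and 6839 for class II, and removing those with *Siglech* or *Cox6a2* gave 41217 CPM for the programme. The lowest of these programme levels, 17731 CPM, was above the 2913 CPM of C1q macrophages under the reported settings. The levels of set genes with that gene left out of the rule stayed inside their intervals.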

Other observations

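Against the 17 C1q macrophages, the 10 genes outside the rule with the highest ratio of CPM plus 10 in members were *Ccl5*, *Kazn*, *Ccr7*, *AW112010*, *Serpinb6b*, *Tbc1d8*, *Serpinb9*, *Pfkfb3*, *Spint2* and *Zfp366*. *AW112010*, an immune-expressed transcript, had 534 UMIs in 57 members (2192 CPM) and was at 342 CPM in T cells. *Pfkfb3*, a driver of glycolysis, was at 406 CPM, and *Zfp366*, a zinc finger gene of dendritic cells, at 394 CPM. All of the 10 except *Ccl5* and *AW112010* had no UMI in the 17 macrophages, so their order rests partly on the added 10 CPM. The 10 lowest by the same ratio, again outside the rule and so without the C1q genes, were *Pf4*, *Mrc1*, *Ccl24*, *Apoe*, *Dab2*, *Ccl2*, *Cd14*, *Ccl7*, *Retnla* and *Maf*. *Apoe*, the main lipid carrier of macrophages, was at 73.9 CPM in members and 90.6-fold (56.7 to 154) lower than in macrophages. *Maf*, a transcription factor of macrophages, had 15 UMIs in members and was at 4639 CPM in macrophages.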
